A study of Mus musculus with 24 samples.

Results

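Frat2, Hbp1 and the Wnt pathway genes that act next to them were followed through a microRNA pulldown in mouse fibroblasts. The genes were chosen by symbol from 8 names: Frat1, Frat2, Hbp1, Gsk3b, Ctnnb1, Ctnnbip1, Lrp6 and Axin1. Of these, 7 were among the 13534 genes of the whole-cell table, and Frat1 was not analysed here. Frat2 and Hbp1 were picked because their recovery with miR-29b was high in these libraries, so their values are given as a description without a test. The other 5 genes were taken as their partners, and tests are given for these. They and the wider Wnt lists used below were also chosen with earlier results of these data known. Their p-values and counts of calls are therefore not independent support.

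The cells were NIH3T3, an established line of mouse embryonic fibroblasts, and every group was transfected with a microRNA mimic. The mimic was either miR-29b or a scrambled sequence used as the control, and both contained 3-cyanovinylcarbazole, a nucleoside that light can crosslink to the facing strand. Per the labels, each mimic was at 10 nM, the cells got more medium at 24 h, and harvest came 8 h after that. Whole-cell RNA was sequenced before the pulldown (input) and after it (pulldown) in 4 libraries for each mimic, which gives 16 libraries, and nuclear and cytoplasmic RNA in 1 library for each mimic and step, which gives 8. The file headers call replicates 1 to 3 lysed and replicate 4 intact. The labels do not say whether replicates came from separate cultures, so the p-values measure the spread between these libraries, which may be technical.

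In the canonical Wnt pathway, ligands bind Frizzled receptors and the co-receptors LRP5 and LRP6 at the cell surface. Without a ligand, a destruction complex built on AXIN and APC lets the kinase GSK3-beta mark beta-catenin for degradation. With a ligand the complex is inhibited, and beta-catenin enters the nucleus and activates genes with TCF/LEF factors. FRAT proteins bind GSK3 and keep it from beta-catenin, HBP1 is an HMG-box transcription factor known to repress genes driven by TCF and beta-catenin, and ICAT, the product of Ctnnbip1, blocks beta-catenin from TCF.

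A microRNA pairs with its targets mainly through its seed, bases 2 to 8 of the mature strand. The mature miR-29 sequences are shown because the mimic was made on miR-29b and the whole family shares that seed, which is in capitals. They are written 5′ to 3′ from RefSeq, build GRCm38.p6, and the sequence of the modified mimic itself was not used here.
mmu-miR-29b-3p: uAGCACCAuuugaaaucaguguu
mmu-miR-29a-3p: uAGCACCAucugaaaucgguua
mmu-miR-29c-3p: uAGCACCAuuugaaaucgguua
The seed AGCACCA was the same in all 3. The mature miR-29b strand lies at chr6:31063025-31063047 on the minus strand (Mir29b-1) and at chr1:195037091-195037113 on the plus strand (Mir29b-2). MiR-29a lies at chr6:31062673-31062694 on the minus strand and miR-29c at chr1:195037600-195037621 on the plus strand.

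Whole-cell libraries held between 7409157 listed counts (scrambled pulldown, replicate 1) and 55153996 (miR-29b input, replicate 4). Replicate 4 stood apart from replicates 1 to 3 in 3 of the 4 groups. On the first principal component it scored 29.0 against -61.7 to -57.9 in the miR-29b input, -26.8 against -55.0 to -52.1 in the scrambled input and 138 against 61.4 to 92.8 in the miR-29b pulldown. In the scrambled pulldown, replicate 1 was the farthest from the others on this component, at -22.5 against -5.41 to -0.864. Where one of these libraries decides a call, the value without it is given. Of 10 fibroblast markers, 9 were measured, with a summed level of 4480 to 7510 CPM (counts scaled to a common library size) in the miR-29b inputs and 4530 to 5500 CPM in the scrambled inputs. That sum was 9080 to 15900 CPM in the miR-29b pulldowns, and its largest part there was from the collagens Col1a1 and Col1a2. Epithelial, leukocyte, myogenic and neural markers each summed to at most 5.59 CPM, and no endothelial marker was measured. Of the 3 adipocyte markers, Fabp4 gave nearly the whole sum of 73.1 to 259 CPM. Throughout, CPM are relative to a library's listed counts after scaling by the trimmed mean of M values (TMM).

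Frat2 lies on chromosome 19 from 41845972 to 41848132 (GRCm38.p6; ENSMUSG00000047604 in the files). Its level was 0.424, 0.343, 0.234 and 1.45 CPM in replicates 1 to 4 of the miR-29b input and 0.344, 0.502, 0.723 and 0.123 CPM in the scrambled input. In the scrambled pulldown it was 0.818, 0.746, 0.644 and 0.568 CPM. In the miR-29b pulldown it was 11.7, 24.6, 18.1 and 6.56 CPM. All 4 libraries of the miR-29b pulldown thus lay above every other library, an order not counted over all genes, and replicate 4 was the lowest of them. Frat2 was a rare transcript outside that group: the counts behind its input levels were 4 to 64, while those in the miR-29b pulldown were 211 to 755. In order of its mean, Frat2 was at 15.3 ± 7.83 CPM (SD, n = 4) with miR-29b and 0.694 ± 0.11 with the scrambled mimic in the pulldowns, and at 0.612 ± 0.562 and 0.423 ± 0.253 in their inputs. The means of the last 3 groups lay within the SD of the miR-29b input.

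Hbp1 (chromosome 12, 31926452 to 31950530; ENSMUSG00000002996) followed the same order at its top. It was at 859, 1140, 1010 and 461 CPM in replicates 1 to 4 of the miR-29b pulldown and at 42.7, 34.7, 35.8 and 36.9 CPM in the scrambled pulldown. The inputs held 51.0, 51.1, 51.5 and 101 CPM with miR-29b and 58.3, 55.7, 57.6 and 20.3 CPM with the scrambled mimic. Replicates 1 to 3 of each input were close together, while replicate 4 was high in the miR-29b input and low in the scrambled one. The group means with miR-29b were 868 ± 294 CPM in the pulldown and 63.6 ± 24.8 CPM in the input, and those with the scrambled mimic were 37.5 ± 3.55 and 48.0 ± 18.5 CPM. The inputs differed by less than their SDs, and the scrambled pulldown overlapped its input.

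The recovery that is specific to the mimic was taken as the log2 ratio of pulldown to input with miR-29b minus the same log2 ratio with the scrambled mimic. For Frat2 it was 3.89 ± 0.82 (log2 ± SE, a 14.9-fold ratio), and for Hbp1 it was 4.12 ± 0.49 (17.4-fold). Among 12915 genes ordered from the highest, Hbp1 was number 12 and Frat2 number 26. This is the measure on which both were chosen, so it supports nothing further. Leaving out replicate 4 of the miR-29b input gave 4.93 for Frat2 and 4.49 for Hbp1, and with replicates 1 to 3 alone they were 5.42 and 4.92.

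The size of that recovery differed between the replicates. With miR-29b, Frat2 was 27.7-fold, 71.8-fold and 77.4-fold higher in the pulldown than in the same-numbered input in replicates 1 to 3, and 4.53-fold higher in replicate 4. With the scrambled mimic the ratio was 2.38, 1.49 and 0.891 in replicates 1 to 3 and 4.61 in replicate 4. In replicate 4 the Frat2 ratios with miR-29b and with the scrambled mimic were therefore nearly equal, a log2 difference of -0.02, although the miR-29b pulldown itself was 11.5-fold above the scrambled pulldown. The scrambled input of that replicate had 4 counts for Frat2. For Hbp1 the ratio with miR-29b was 16.8, 22.3 and 19.7 in replicates 1 to 3 and 4.58 in replicate 4, against 0.732, 0.623 and 0.621, then 1.82, with the scrambled mimic. Hbp1 in replicate 4 thus kept a log2 difference of 1.33, below the 4.52 to 5.16 of the other replicates.

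**Figure D1:**
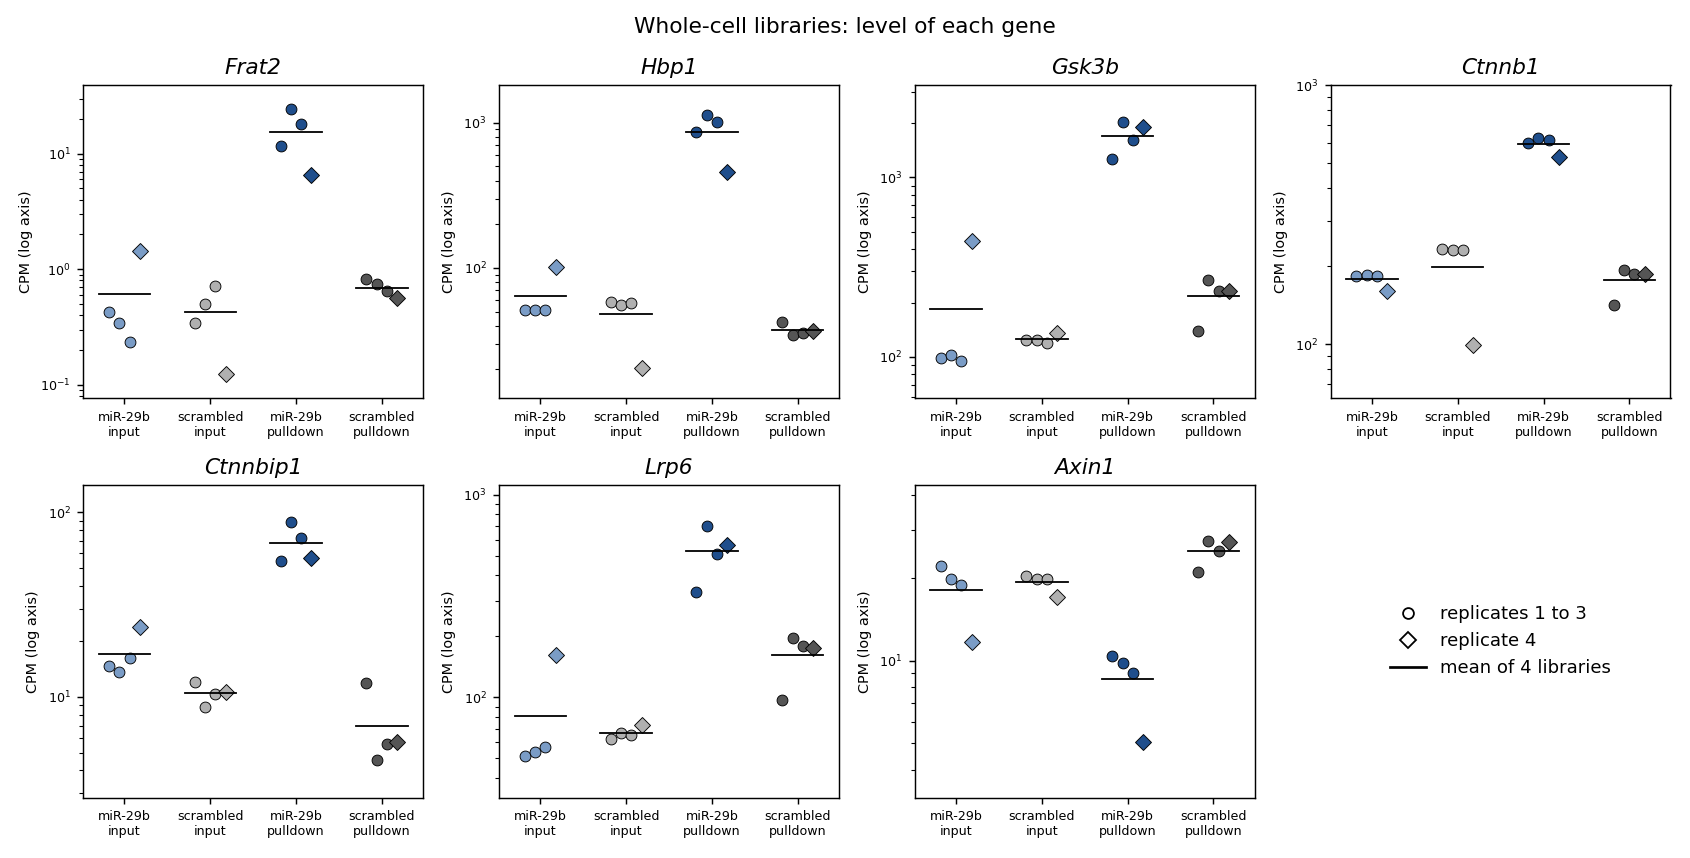
Level of each gene in the 16 whole-cell libraries, in CPM on a log axis, by mimic and step. Circles are replicates 1 to 3, diamonds replicate 4 and lines the mean of 4 libraries. The miR-29b pulldown lies above the scrambled pulldown in every panel but that of Axin1, where it lies below.

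The authors' deposited table gives a score per replicate, called PE in its headers. The formula recovered from the values, within 0.0001 for all 14052 lines, was the miR-29b pulldown minus the mean of the 2 inputs, divided by the scrambled pulldown, all in the authors' CPM. In the authors' deposited table the score of Frat2 was 19.9, 36.0, 29.5 and 12.2 in replicates 1 to 4, and that of Hbp1 was 31.5, 36.4, 30.4 and 13.6. Replicate 4 was the lowest for both. In the authors' deposited table, Frat2, Hbp1, Gsk3b and Ctnnbip1 were marked as positive hits, as were 4.19% of all 13534 genes, and Ctnnb1, Lrp6 and Axin1 were not. A predicted miR-29 site was marked in the authors' deposited table for Frat2, Gsk3b and Ctnnbip1, and for 3.76% of all genes. Hbp1, Ctnnb1, Lrp6 and Axin1 had no such mark. Of the 7 genes only Frat2 had the mark for an 8-base match, as had 1.09% of all genes. How those marks were set is read only from the column names.

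Of the 5 partners, 4 were recovered more with miR-29b than with the scrambled mimic and 1 less, all past the threshold of an edgeR adjusted p of 0.05. The 4 were Gsk3b, Ctnnb1, Ctnnbip1 and Lrp6, and the 1 was Axin1. In the same comparison, 17.0% of all 12915 genes tested passed upward and 9.21% downward. The upward share among the partners is therefore to be read against a comparison in which many genes moved. It is also a description, since the partners were chosen with earlier results of these data known. The median of the 5 partners was 1.91 on the log2 scale, against -0.10 for all genes tested.

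Gsk3b (chromosome 16, 38089001 to 38246084; ENSMUSG00000022812) encodes the kinase to which FRAT proteins bind. Its level in the miR-29b pulldown was 1260, 2050, 1620 and 1900 CPM in replicates 1 to 4, and in the scrambled pulldown it was 139, 269, 233 and 233 CPM. The scrambled input was even, at 125, 124, 120 and 136 CPM, while the miR-29b input was 98.8, 103 and 94.4 CPM in replicates 1 to 3 and 445 CPM in replicate 4. The pulldown groups did not overlap. The scrambled pulldown lay above the scrambled input by a thin margin, 139 CPM at its lowest against 136 CPM at the highest input. Its mean was 1.73-fold that of the input, and in replicate 1 the ratio was 1.11. How many of all genes had that order was not counted, so it is not read as a trait of Gsk3b. In order, the means were 1710 ± 348 CPM in the miR-29b pulldown, 218 ± 55.9 in the scrambled pulldown, and 185 ± 173 and 126 ± 7.07 in the inputs with miR-29b and the scrambled mimic, of which the 2 inputs overlapped. The mimic-specific recovery of Gsk3b was 2.41 ± 0.60 (5.32-fold, edgeR adjusted p = 0.00723). It moved to 3.39 when replicate 4 of the miR-29b input, where its level was high, was left out. Over all the settings tried, the adjusted p of Gsk3b in edgeR and DESeq2 was 5.74e-07 to 0.0186.

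Ctnnb1 (chromosome 9, 120933400 to 120960507; ENSMUSG00000006932) encodes beta-catenin, the transcriptional effector of the pathway. Its miR-29b pulldown held 599, 626, 616 and 529 CPM, and its scrambled pulldown 142, 194, 186 and 186 CPM. The inputs held 184, 185, 184 and 160 CPM with miR-29b and 234, 232, 232 and 99.3 CPM with the scrambled mimic. The miR-29b pulldown, 592 ± 44.0 CPM, lay above all other libraries, and the other 3 groups overlapped one another. Their means were 199 ± 66.8 CPM in the scrambled input, 178 ± 11.9 in the miR-29b input and 177 ± 23.7 in the scrambled pulldown. How many of all genes had the miR-29b pulldown above all other libraries was not counted. The mimic-specific recovery of Ctnnb1 was 1.91 ± 0.32 (3.75-fold, edgeR adjusted p = 0.0004). Its value without replicate 4 of the miR-29b input was 1.91 as well. Over all the settings tried, the adjusted p of Ctnnb1 in edgeR and DESeq2 was 1.47e-08 to 0.05. The highest came from edgeR on a subset of 10 libraries (1.83), at the edge of the threshold.

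Ctnnbip1 (chromosome 4, 149518241 to 149566437; ENSMUSG00000028988) encodes ICAT, which binds beta-catenin. Its level was 54.7, 88.3, 73.0 and 56.4 CPM in the miR-29b pulldown and 11.9, 4.55, 5.57 and 5.71 CPM in the scrambled pulldown. In the inputs it was 14.8, 13.7, 16.2 and 23.8 CPM with miR-29b and 12.0, 8.81, 10.4 and 10.6 CPM with the scrambled mimic. The mean was 68.1 ± 15.8 CPM in the miR-29b pulldown. It was 17.1 ± 4.55 and 10.5 ± 1.3 CPM in the inputs with miR-29b and the scrambled mimic, and 6.92 ± 3.33 CPM in the scrambled pulldown. Only the last 2 groups overlapped, an order not counted over all genes. Ctnnbip1 was the partner with the largest mimic-specific recovery, 2.63 ± 0.38 (6.19-fold, edgeR adjusted p = 0.000135), a value within 1 SE of that of Gsk3b. Replicate 1 of the scrambled pulldown, the library with the fewest counts, held the highest level of that group.

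Lrp6 (chromosome 6, 134446476 to 134566913; ENSMUSG00000030201) encodes the surface co-receptor. It was at 330, 699, 511 and 567 CPM in the miR-29b pulldown and at 97.0, 196, 179 and 176 CPM in the scrambled pulldown. The inputs held 51.2, 53.6, 57.2 and 161 CPM with miR-29b and 62.5, 66.7, 65.3 and 73.3 CPM with the scrambled mimic. The means were 527 ± 153 and 162 ± 44.2 CPM in the pulldowns and 80.8 ± 53.7 and 67.0 ± 4.58 CPM in the inputs, with miR-29b first in each pair. As with Gsk3b, the scrambled pulldown lay wholly above the scrambled input, here by 2.42-fold in the means. That order was not counted over all genes. The mimic-specific recovery of Lrp6 was 1.43 ± 0.49 (2.69-fold, edgeR adjusted p = 0.0425), and of the 5 partners it was the one nearest the threshold. The call was lost when any of 13 of the 16 libraries was left out; the exceptions were replicate 4 of the miR-29b input, replicate 1 of the miR-29b pulldown and replicate 2 of the scrambled pulldown. It was also lost with upper-quartile factors (1.14, edgeR adjusted p = 0.081). Leaving out replicate 4 of the miR-29b input gave 2.09, and over all settings the adjusted p of Lrp6 in edgeR and DESeq2 ranged from 0.000224 to 0.0926.

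Axin1 (chromosome 17, 26131217 to 26195811; ENSMUSG00000024182), the scaffold of the destruction complex, went the other way. Its level was 10.4, 9.79, 9.03 and 5.07 CPM in the miR-29b pulldown and 21.1, 27.3, 25.0 and 27.0 CPM in the scrambled pulldown. The inputs held 22.1, 19.9, 18.8 and 11.7 CPM with miR-29b and 20.3, 19.8, 19.9 and 17.1 CPM with the scrambled mimic. The miR-29b pulldown was below every other library. The scrambled pulldown was above the scrambled input, 21.1 CPM at its lowest against 20.3 CPM at the highest input. Neither order was counted over all genes, so neither is read as a trait of Axin1. From the highest, the means were 25.1 ± 2.84 CPM (scrambled pulldown), 19.3 ± 1.49 and 18.1 ± 4.51 CPM for the overlapping scrambled and miR-29b inputs, and 8.56 ± 2.39 CPM in the miR-29b pulldown. The mimic-specific recovery of Axin1 was -1.47 ± 0.31 (2.77-fold lower, edgeR adjusted p = 0.00232). Under the other scalings the value ran from -1.20 with the authors' library totals to -1.77 with upper-quartile factors.

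For Gsk3b, Ctnnb1 and Lrp6, the difference between the mimics in the ratio of pulldown to input was positive in every replicate and smallest in replicate 4. The log2 difference between the mimics was 3.52, 3.19 and 3.15 for Gsk3b in replicates 1 to 3 and 1.32 in replicate 4. For Ctnnb1 it was 2.43, 2.02 and 2.06, then 0.82, and for Lrp6 2.05, 2.15 and 1.70, then 0.55. Replicate 4 was the lowest for these 3 genes, as for Frat2 and Hbp1. Ctnnbip1 did not follow this, with 1.90, 3.64 and 3.08 in replicates 1 to 3 and 2.14 in replicate 4. Axin1 was negative in each, at -1.15, -1.49, -1.39 and -1.87, and most negative in replicate 4. Fitted on replicates 1 to 3 alone, mimic-specific recovery was 3.28 for Gsk3b, 2.18 for Ctnnb1, 2.92 for Ctnnbip1, 2.00 for Lrp6 and -1.34 for Axin1, and all 5 calls held. Without the fourth miR-29b pulldown, and likewise without the fourth scrambled input, Lrp6 was at 1.39 and its call was lost, while the calls of the other 4 partners held.

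Between the pulldowns alone, without the inputs, the same 5 partners passed, 4 higher with miR-29b and 1 lower. This comparison shares the pulldown libraries with the one above, so it is not a second line of evidence. Of all genes, 24.5% passed upward and 20.9% downward here. The difference was 3.34 ± 0.29 for Ctnnbip1 (10.1-fold, edgeR adjusted p = 2.78e-07) and 2.97 ± 0.45 for Gsk3b (7.82-fold, edgeR adjusted p = 6.23e-05). It was 1.74 ± 0.23 for Ctnnb1 (3.35-fold, edgeR adjusted p = 1.57e-05) and 1.70 ± 0.36 for Lrp6 (3.25-fold, edgeR adjusted p = 0.00103). Axin1 was 2.94-fold lower, -1.56 ± 0.22 on the log2 scale (edgeR adjusted p = 3.37e-05). All 5 calls held in every setting tried for this comparison. As a description, Frat2 was 22.5-fold higher (4.49 ± 0.59) and Hbp1 23.1-fold higher (4.53 ± 0.39). The groups did not overlap for any of the 7 genes; 22.8% of all genes had the miR-29b pulldown wholly above and 21.1% wholly below the scrambled pulldown.

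**Figure D2:**
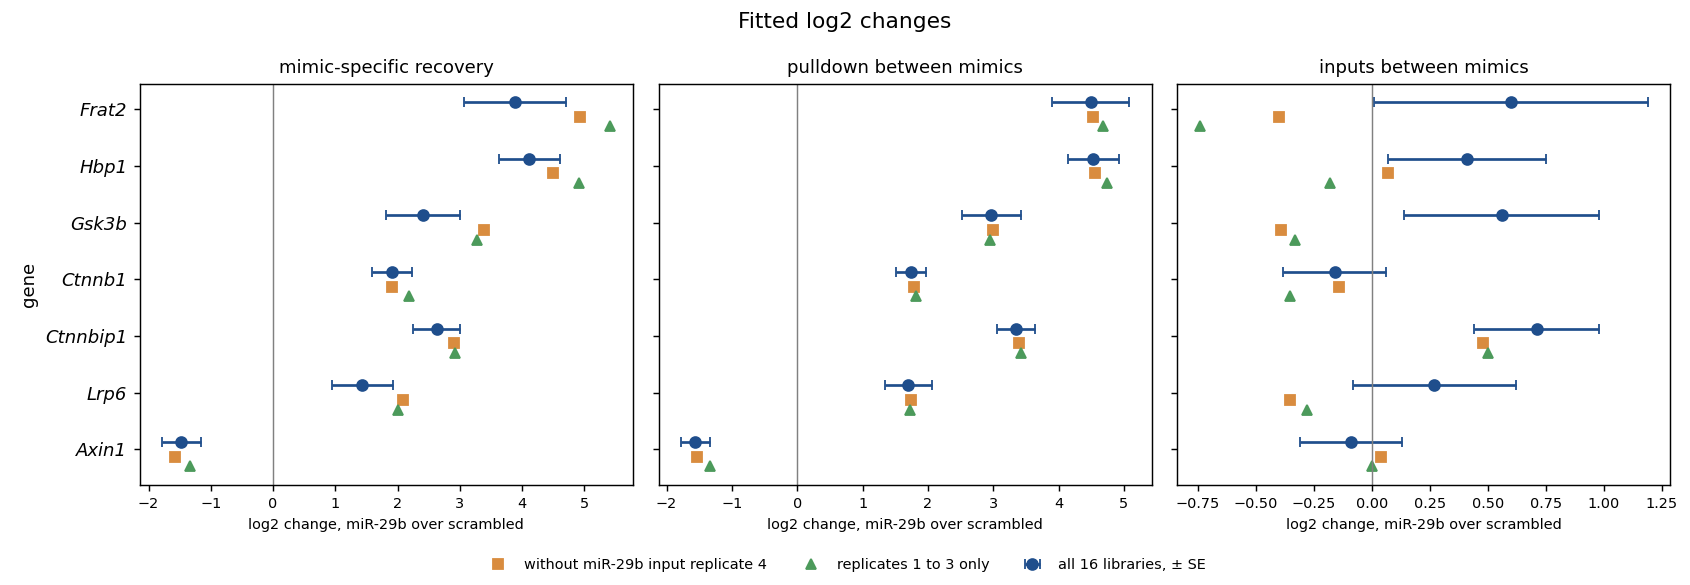
Log2 change of each gene, miR-29b over scrambled, in 3 comparisons: mimic-specific recovery, pulldowns alone and inputs alone (the horizontal scales differ). Blue points are fits to all 16 libraries with their SE, orange squares leave out replicate 4 of the miR-29b input, and green triangles use replicates 1 to 3. The pulldown values stay on the same side of 0, while 3 of the input values, for Frat2, Gsk3b and Lrp6, change from above 0 to below 0 in both.

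In the inputs, which measure the RNA in the transfected cells before any pulldown, no partner differed between the mimics (0 of 5 by edgeR adjusted p and 0 of 5 by DESeq2; 1 of 5, Ctnnbip1, had an unadjusted edgeR p under 0.05). Of all genes, 0.0542% passed upward and 0 downward. In RNA from bulk cultures, a lower level in each cell and fewer cells with the transcript cannot be told apart. The input difference of Ctnnbip1 was 0.71 ± 0.27 (1.64-fold, edgeR adjusted p = 0.869), with all 4 miR-29b inputs above all 4 scrambled inputs, as for 2.60% of all genes. For Gsk3b the approximate 95% interval of the log2 difference was -0.26 to 1.38, for Ctnnb1 -0.59 to 0.27, for Lrp6 -0.42 to 0.96 and for Axin1 -0.52 to 0.34. These intervals were taken from the SE by a normal approximation, so they are somewhat narrower than those of the edgeR test. For Frat2 the input difference was 0.60 ± 0.59 and for Hbp1 0.41 ± 0.34, given without a test.

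For Hbp1, Gsk3b, Ctnnb1 and Lrp6, the input averages combined replicates that went opposite ways. In replicates 1 to 3, Ctnnb1 was at 184 to 185 CPM with miR-29b and 232 to 234 CPM with the scrambled mimic. Hbp1 was at 51.0 to 51.5 against 55.7 to 58.3 CPM, Gsk3b at 94.4 to 103 against 120 to 125 CPM, and Lrp6 at 51.2 to 57.2 against 62.5 to 66.7 CPM. In these 3 replicates all 4 genes were lower with miR-29b without overlap, as were 20.5% of all genes. Ctnnbip1 was higher without overlap (13.7 to 16.2 against 8.81 to 12.0 CPM), as were 18.2% of all genes, and Frat2 and Axin1 overlapped. In replicate 4, Hbp1, Gsk3b, Ctnnb1, Lrp6 and Frat2 were all higher with miR-29b. Fitted on replicates 1 to 3 alone, the input difference was -0.35 for Ctnnb1 (edgeR adjusted p = 0.158), -0.33 for Gsk3b (0.56), -0.28 for Lrp6 (0.722) and 0.50 for Ctnnbip1 (0.457), none of them past the threshold. Over all settings the adjusted p of Ctnnb1 in the inputs was 0.158 to 1.0 in edgeR and DESeq2. Since the headers call replicate 4 alone intact, that step and the replicate cannot be told apart. In the miR-29b input, replicate 4 also differed in the RNA used for the library (6 ng against 5 ng), which cannot be told apart either.

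The wider pathway was described with 6 lists ordered by role, which name 101 genes besides Frat2 and Hbp1. Of these, 67 were in the whole-cell table and 64 were tested, including the 5 partners. In mimic-specific recovery 17 of the 64 rose (26.6%, against 17.0% of all genes) and 5 fell (7.8%, against 9.21%), and their median was -0.11, close to the -0.10 of all genes. Between the pulldowns alone 25 rose (39.1%, against 24.5%) and 10 fell (15.6%, against 20.9%), with a median of 0.08. The counts downward depended on the scaling. With upper-quartile factors, which put the median of all genes at -0.39 and called 12.9% upward and 18.6% downward, 15 Wnt genes rose and 13 fell. With the authors' library totals, which put that median at 0.21 and called 19.1% upward and 2.21% downward, 20 rose and 4 fell. In replicates 1 to 3 alone, where 24.4% of all genes passed upward and 19.1% downward, 24 Wnt genes rose and 14 fell.

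Few of the ligands and secretion factors were measured: 3 of 17, and none passed in mimic-specific recovery with TMM scaling, all 16 libraries and no block. Since 17.0% of all genes passed upward and 9.21% downward, the lack of a call among 3 genes does not set this role apart. With the replicate number as a block, Wnt9a (2.18, edgeR adjusted p = 0.0188) and Wls (-1.19, edgeR adjusted p = 0.0199) passed and Porcn did not; both also passed in replicates 1 to 3 alone and without the fourth miR-29b input, and Wnt9a with the authors' library totals. Without the block, Wls, which carries Wnt proteins to the cell surface, was at -1.11 ± 0.54 (edgeR adjusted p = 0.149; 0.000578 to 0.374 over all settings in edgeR and DESeq2), and Porcn, which acylates them, at -0.29 ± 0.55 (edgeR adjusted p = 0.744). Wnt9a, the ligand among the 3, was at 2.06 ± 0.82 (edgeR adjusted p = 0.077; 0.00799 to 0.164 over all settings in edgeR and DESeq2) on a level of 1.31 ± 0.995 CPM in the miR-29b pulldown. It passed between the pulldowns alone (2.00 ± 0.58, edgeR adjusted p = 0.0105), and was at 1.31 when replicate 4 of the miR-29b pulldown was left out.

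Of 12 receptors tested, 4 rose and none fell: Fzd5, Fzd6, Lgr4 and Lrp6. The share upward was 33.3%, against 17.0% of all genes, and 9.21% of all genes fell. Fzd5, a Frizzled receptor, was at 119, 169, 153 and 148 CPM in the miR-29b pulldown and 8.18, 12.6, 11.5 and 12.3 CPM in the scrambled pulldown. Its miR-29b input was 6.44, 7.26 and 7.92 CPM in replicates 1 to 3 and 34.0 CPM in replicate 4. The recovery of Fzd5 was 2.87 ± 0.59 (7.33-fold, edgeR adjusted p = 0.00199), and 3.89 without that input library. Fzd6, another Frizzled receptor, rose by 1.83 ± 0.31 (edgeR adjusted p = 0.000431), and Lgr4, a receptor for R-spondins, by 1.02 ± 0.26 (edgeR adjusted p = 0.00857). Lgr5, its relative, was at -2.66 ± 1.07 (edgeR adjusted p = 0.082) on 0.267 CPM in the miR-29b inputs, and passed with the replicate block (-2.89, edgeR adjusted p = 0.0141; 0.00837 to 0.193 over all settings in edgeR and DESeq2).

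None of the 6 tested inhibitors that act outside the cell or at its membrane passed in mimic-specific recovery with TMM scaling, the 16 libraries and no block. All genes passed at 17.0% upward and 9.21% downward, so the lack of a call among 6 does not set these genes apart. Apcdd1, a membrane inhibitor of the pathway, was at 1.66 ± 0.93 (edgeR adjusted p = 0.214). It passed with the replicate block (1.73, edgeR adjusted p = 0.0385), in replicates 1 to 3 alone (1.87, edgeR adjusted p = 0.0183) and when replicate 4 of the miR-29b input was left out (2.98, edgeR adjusted p = 0.0101). Without replicate 4 of the scrambled input Apcdd1 was at 0.97, and over all settings its adjusted p in edgeR and DESeq2 was 0.0101 to 0.488. Sfrp2, a secreted Frizzled-related protein, was at -0.66 ± 0.46 (edgeR adjusted p = 0.332). It passed in replicates 1 to 3 alone (-1.25, edgeR adjusted p = 0.00445) and when replicate 4 of the miR-29b pulldown was left out (-1.16, edgeR adjusted p = 0.0213), and in no other setting run. Znrf3, a ubiquitin ligase that removes Frizzled receptors, was at -0.34 ± 0.27 (edgeR adjusted p = 0.381). Dkk3, of the Dickkopf family, was at -1.36 ± 1.21 (edgeR adjusted p = 0.451) with less than 1 CPM in each library.

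The relay and destruction complex moved in both directions. Of 18 genes tested, 5 rose (Ctnnb1, Dvl3, Fbxw11, Gsk3b and Tnks2) and 4 fell (Apc2, Axin1, Dact3 and Dvl1). These shares were 27.8% upward and 22.2% downward, against 17.0% and 9.21% of all genes. Dvl3 and Dvl1 encode Dishevelled proteins, which relay the signal from Frizzled, and they went opposite ways. Dvl3 was at 76.7, 95.9, 91.8 and 119 CPM in the miR-29b pulldown against 21.0, 24.5, 25.6 and 25.7 CPM in the scrambled one, a recovery of 2.10 ± 0.22 (4.30-fold, edgeR adjusted p = 8.57e-06). Dvl1 was at 6.79, 7.75, 8.31 and 5.22 CPM against 14.2, 14.2, 15.9 and 15.0 CPM, a recovery of -1.01 ± 0.21 (2.01-fold lower, edgeR adjusted p = 0.00236). The call of Dvl1 was lost with the authors' library totals (-0.71, edgeR adjusted p = 0.103). Tnks2, a tankyrase that promotes the breakdown of AXIN, rose by 1.86 ± 0.33 (edgeR adjusted p = 0.00073), and Dact3, which binds Dishevelled, was at -1.43 ± 0.34 (edgeR adjusted p = 0.00591).

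Among 18 nuclear factors, 4 rose (Ctnnbip1, Pygo2, Ruvbl2 and Tle4) and 1 fell (Tle2). These shares, 22.2% upward and 5.6% downward, were near the 17.0% and 9.21% of all genes. Pygo2, a co-activator recruited to beta-catenin, rose by 2.10 ± 0.25 (4.28-fold, edgeR adjusted p = 2.1e-05). It was at 59.5, 89.5, 75.4 and 66.6 CPM in the miR-29b pulldown, all above the 15.3 to 17.1 CPM of the scrambled pulldown. Ruvbl2, an ATPase that binds beta-catenin, rose by 1.35 ± 0.26 (edgeR adjusted p = 0.00135). The Groucho-type co-repressors split, with Tle4 at 1.08 ± 0.26 (edgeR adjusted p = 0.00564) and Tle2 at -1.28 ± 0.24 (edgeR adjusted p = 0.00108).

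Of 10 genes listed as Wnt targets, 4 rose and none fell: Wisp1, Wisp2, Cd44 and Fosl1. The share upward was 40.0%, against 17.0% of all genes, and 9.21% of all genes fell. Wisp1, a secreted matrix-associated protein now called Ccn4, was at 1600, 2530, 2110 and 4340 CPM in the miR-29b pulldown and 32.5, 67.5, 60.8 and 62.8 CPM in the scrambled pulldown. Its miR-29b input was 51.3, 53.7 and 56.6 CPM in replicates 1 to 3 and 935 CPM in replicate 4. The recovery of Wisp1 was 3.67 ± 1.11 (12.7-fold, edgeR adjusted p = 0.0227) with that library and 6.10 without it. Cd44, a surface receptor for hyaluronan, rose by 1.75 ± 0.40 (edgeR adjusted p = 0.00416), and Fosl1, a subunit of AP-1, by 1.47 ± 0.36 (edgeR adjusted p = 0.00683). Wisp2, related to Wisp1, rose by 1.41 ± 0.31 (edgeR adjusted p = 0.00338). In the inputs none of the 64 Wnt genes passed (0 by edgeR adjusted p and 0 by DESeq2). An unadjusted edgeR p under 0.05 was found for 4, namely Ccnd1, Ctnnbip1, Fzd8 and Wisp1. Of all genes, 0.0542% passed upward in the inputs and 0 downward, so the lack of a call does not set the Wnt genes apart.

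**Figure D3:**
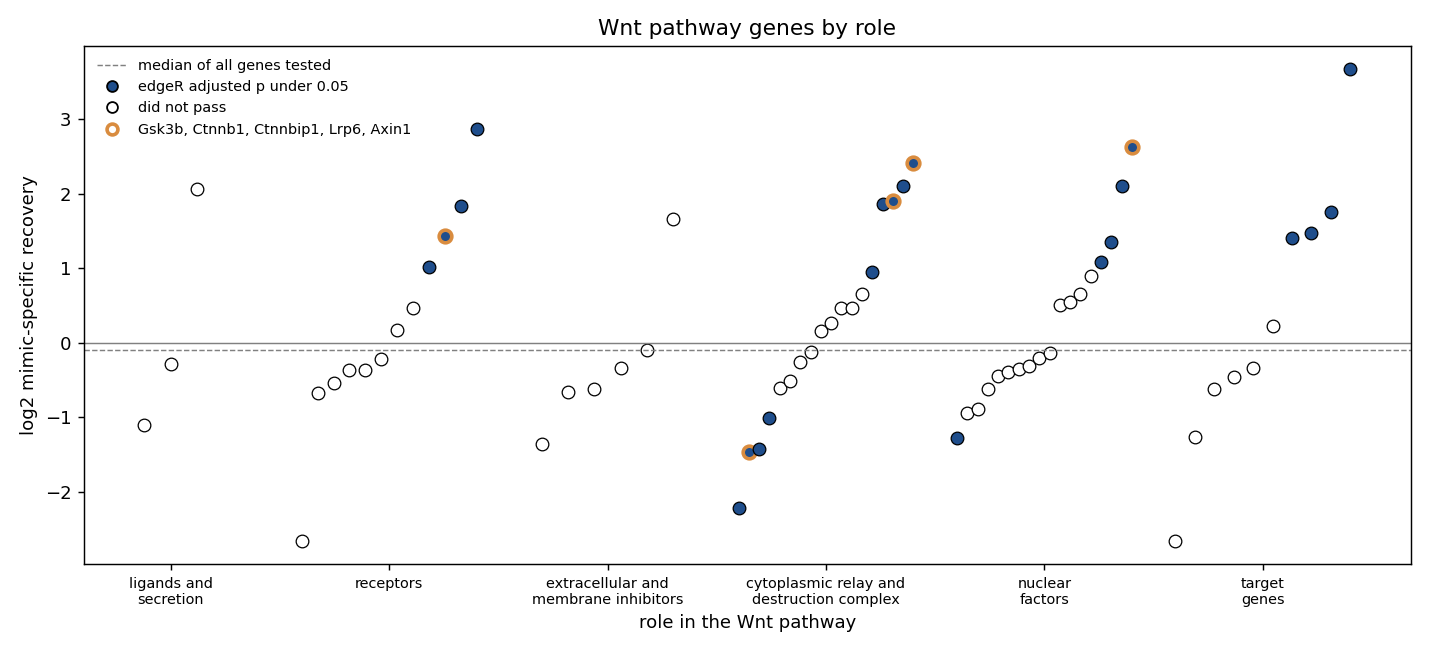
Mimic-specific recovery (log2) of each Wnt gene tested, grouped by role and sorted within each role; Lgr5 stands under receptors and targets, and Rnf43 and Znrf3 under inhibitors and targets. Filled points passed an edgeR adjusted p of 0.05 in the model without a block, orange rings mark the 5 partners of Frat2 and Hbp1, and the dashed line is the median of all genes, -0.10. Ligands (3 genes) and inhibitors (6 genes) hold no filled point, and the relay and destruction complex holds 5 above the line and 4 below. For comparison, 17.0% of all genes passed upward and 9.21% downward.

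The genes most like Frat2 and Hbp1 in their level over the 16 libraries were looked for among 9140 genes with a mean of at least 5 CPM. For Frat2 they were Zbtb5 (Pearson r = 0.991), Col4a2 (0.989), Col4a5 (0.989), Elmod2 (0.988) and Ypel2 (0.987). Col4a2 and Col4a5 encode collagen IV chains, and collagens are the best known miR-29 targets. For Hbp1 they were Frrs1 (0.992), Wdfy1 (0.991), Armc7 (0.99), Ccnl2 (0.99) and Zfp346 (0.988). The r between Frat2 and Hbp1 was 0.964. With Hbp1, r was 0.95 for Ctnnb1, 0.932 for Ctnnbip1, 0.903 for Gsk3b, 0.804 for Lrp6 and -0.837 for Axin1. These are descriptions over libraries of 4 groups that differ mainly by the pulldown.

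In the fractions each condition had 1 library, so there is no test, and the errors given cover counting only (95%). Of the 7 genes, 6 were in the table of fractions, and Frat2 was not analysed there. Listed counts per fraction library were 5320421 (cytoplasmic scrambled pulldown) to 20142591 (cytoplasmic scrambled input). In the authors' deposited table none of the 6 genes had the mark for the cytoplasm, whose share over all genes was not counted. The authors' PE score in the cytoplasm was 3.90 for Hbp1, 0.667 for Gsk3b and 0.450 for Ctnnbip1. It was negative for Ctnnb1 (-0.733), Lrp6 (-0.643) and Axin1 (-0.709). Of all 11568 genes, 19.3% had a mimic-specific recovery of at least 2-fold in the cytoplasm and 1.83% in the nucleus.

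Hbp1 was recovered with miR-29b in both fractions. In the cytoplasm it was at 229 CPM in the miR-29b pulldown, 57.0 CPM in the scrambled pulldown, 46.6 CPM in the miR-29b input and 56.2 CPM in the scrambled input, a recovery of 2.26 ± 0.24 (log2). In the nucleus the same libraries held 150, 64.0, 69.9 and 74.8 CPM, a recovery of 1.32 ± 0.20. The nuclear value was lower than the cytoplasmic one but stood higher among the genes of its fraction, above 99.3% of them, against 97.5% in the cytoplasm.

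Ctnnb1 followed, with 370 CPM against 193 CPM in the cytoplasmic pulldowns and 301 and 384 CPM in their inputs. Its recovery there was 1.29 ± 0.13, above 87.1% of genes. Its cytoplasmic miR-29b pulldown was thus below the scrambled input, and the recovery includes a scrambled pulldown lower than both inputs. Its nuclear pulldowns held 777 and 459 CPM and its nuclear inputs 491 and 553 CPM, a recovery of 0.93 ± 0.08, above 97.7% of genes. Gsk3b was recovered by 0.99 ± 0.13 in the cytoplasm (354 against 207 CPM in the pulldowns, 172 and 201 CPM in the inputs) and by 0.31 ± 0.12 in the nucleus (255 against 196 CPM, with 184 and 176 CPM). These Gsk3b values lay above 80.5% of genes in the cytoplasm and 81.4% in the nucleus, and both were smaller than in the whole-cell libraries.

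For Lrp6 and Ctnnbip1 the fractions held less recovery than whole cells, and Axin1 differed between them. Lrp6 had a recovery of 0.12 ± 0.17 in the cytoplasm (139 against 126 CPM in the pulldowns, 144 and 142 CPM in the inputs) and 0.50 ± 0.14 in the nucleus (211 against 151 CPM, with 156 and 159 CPM). Ctnnbip1 had few counts, 21 to 135 per library, and its recovery was -0.32 ± 0.59 in the cytoplasm and 0.49 ± 0.94 in the nucleus, neither outside counting error. Axin1 was at 7.65 CPM in the cytoplasmic miR-29b pulldown against 33.5 CPM in the scrambled one, with 17.1 and 18.8 CPM in the inputs, a recovery of -1.94 ± 0.49 that lay above only 2.8% of genes. In the nucleus its 4 levels were 19.3 to 19.7 CPM and its recovery 0.03 ± 0.40. The low share of Axin1 in the miR-29b pulldown was thus measured in whole cells and cytoplasm, and not in nuclear RNA. Few genes moved in the nucleus at all. There 2.31% of all genes were at least 2-fold lower, against 16.5% in the cytoplasm, so a nuclear value near 0 is not particular to Axin1.

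**Figure D4:**
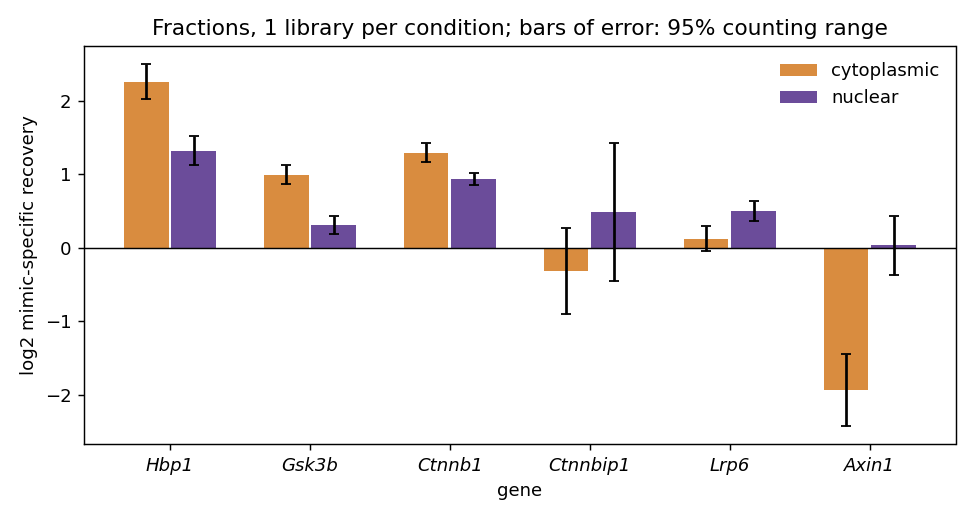
Mimic-specific recovery (log2) in the cytoplasmic and nuclear fractions for the 6 genes measured there, from 1 library per condition; error bars are 95% counting ranges. Hbp1 is highest in both fractions, and Axin1 is at -1.94 in the cytoplasm and 0.03 in the nucleus.

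Over the wider pathway, 58 Wnt genes were measured in the fractions. In the cytoplasm 9 had a recovery of at least 2-fold, among them Ctnnb1, Fzd5, Fzd6, Lgr4, Wisp1 and Cd44, and 15 were at least 2-fold lower (against 19.3% and 16.5% of all genes). Dvl3 and Fosl1, which rose in whole cells, were among the 15, and Tle2, which fell in whole cells, was among the 9. The cytoplasmic median was -0.33, against 0.04 for all genes. In the nucleus none was at least 2-fold higher and 1, Lgr5, was at least 2-fold lower, against 1.83% and 2.31% of all genes.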

How the data were processed

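Whole-cell RNA (4 groups of 4 libraries) and fraction RNA (8 groups of 1) were analysed. STAR 2.3.0 and mm10 are named in the submitters' processing notes; the counter, strand setting and rule for listing genes are not given there or in the labels. Deposited whole-number counts per gene were tested. The authors' deposited CPM equal the count plus 1 over a larger total, of which listed counts were 48.9% to 87.3% in whole-cell libraries. The PE score and the marks are the authors'. The tables named for the fractions were identical, and each holds both.

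Of 14052 whole-cell lines, 518 repeats were dropped. Counts were tested in edgeR 4.0.16 (R 4.3.3; filterByExpr, TMM, quasi-likelihood, two-sided) with 1 model of 4 group means over 16 libraries. Benjamini-Hochberg adjustment was over 12915 genes; 619 fell under the filter. The pipeline was tested on simulated data. Fraction log2 ratios used TMM, a prior count of 5 and genes with at least 20 counts.

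Members and lists were chosen with earlier results of these data known. Named genes were the members, up to 4 genes of smallest p per list, Wnt genes called in the inputs, and the 5 likest genes for Frat2 and for Hbp1; Fbxw11 and Apc2 were named after their values were seen, as were the genes listed by unadjusted p and by fold in the fractions. Deviations of same-numbered libraries correlated over 0.1 in every replicate between the inputs (r = 0.506 to 0.717) and between miR-29b inputs and pulldowns (0.379 to 0.7). They did so in 3 of 4 replicates between the pulldowns (-0.0687 to 0.365) and in 2 of 4 between the scrambled pulldown and its input (-0.0544 to 0.314). A high r does not by itself show pairing. It was 0.332 to 0.564 between scrambled inputs and miR-29b pulldowns, and replicate 2 of the miR-29b input was closest to replicate 3 of the miR-29b pulldown. Pairing was therefore not settled, and the 4 groups were not paired in the main model. The main model has no block; the replicate block is given where it changes a call. The alternatives were other scalings, filters, DESeq2 1.42.0, replicate and set blocks, subsets of libraries, and leaving out each library. Frat1 is not analysed here.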

Additional observations from a re-analysis of the deposited data

Results flagged for a closer look

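In 28 groups of 4 libraries (7 genes in 4 groups), a library was set apart where its gap to the nearest other library, divided by the range of the group's log2 CPM, exceeded Dixon's critical value for 4 samples. Chance alone gives about 1 such group in 20. Replicate 4 of the miR-29b input was set apart for Hbp1 (0.984), Gsk3b (0.942), Ctnnb1 (0.945) and Lrp6 (0.903). It was high for Hbp1, Gsk3b and Lrp6 and low for Ctnnb1. Replicate 4 of the scrambled input was set apart, each time as the lowest, for Hbp1 (0.958), Ctnnb1 (0.987) and Axin1 (0.855). Replicate 1 of the scrambled pulldown was the lowest for Ctnnb1 (0.865) and Lrp6 (0.85); it has the fewest listed counts of the 16 libraries.

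Between the fractions, a pair of genes had estimates of opposite sign, though the nuclear recovery of each was within counting error of 0. The difference was not tested because each condition had 1 library. The mimic-specific recovery of Ctnnbip1 was -0.32 in the cytoplasm and 0.49 in the nucleus, both within counting error of 0. That of Axin1 was -1.94 in the cytoplasm and 0.03 in the nucleus, and its difference between the pulldowns alone was -2.07 and 0.02.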

How the results depend on the processing

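Apart from Lrp6 in mimic-specific recovery, the 5 partners kept direction and call in mimic-specific recovery and between the pulldowns in every setting tried. Ctnnb1 was at the edge of the threshold in mimic-specific recovery with 10 libraries (edgeR adjusted p = 0.05 as rounded). No called value changed its sign. Of the Wnt genes, 5 fell in mimic-specific recovery; 13 fell with upper-quartile factors, 8 with the lysed or intact set as a block, 14 in replicates 1 to 3 and 1 (Axin1) in 10 libraries (without replicate 3 of each group and replicate 4 of the miR-29b input and scrambled pulldown), and leaving out 1 library gave 4 to 9, the 9 without replicate 4 of the scrambled input. Between the pulldowns 10 fell, against 20 with upper-quartile factors, 5 with the authors' totals, 16 with the set as a block, 16 in replicates 1 to 3 and 4 in 10 libraries, and 7 to 13 leaving out 1 library. Of all genes, 20.9% fell between the pulldowns in the main model, 33.6% with upper-quartile factors and 8.47% with the authors' totals. That share was 29.0% with the set as a block, 29.5% in replicates 1 to 3 and 7.32% in 10 libraries. Leaving out 1 library gave 17.4% to 22.3%. In the inputs 1 Wnt gene, Ccnd1, passed upward in replicates 1 to 3, as did 0.639% of all genes. With 10 libraries, Dact3, Dvl1, Fosl1, Lgr4, Tle2, Tle4 and Wisp2 lost their calls in mimic-specific recovery. Wnt9a, Wls, Apcdd1 and Lgr5 passed with the replicate block (2.18, -1.19, 1.73 and -2.89). The replicate block gave 2.66 for Gsk3b, 1.56 for Lrp6 and -1.5 for Axin1 in mimic-specific recovery, and 21 Wnt genes up and 7 down; it called no partner in the inputs. Of all genes in mimic-specific recovery, 2192 rose and 1190 fell, against 1662 and 2400 with upper-quartile factors, 2464 and 285 with the authors' totals, 2599 and 1931 with the replicate block, 2616 and 1984 with the set as a block, 3127 and 2457 in replicates 1 to 3 and 1273 and 180 in 10 libraries. The cause of these differences was not tested. Depth limits Frat2 in the inputs and Ctnnbip1 in the fractions.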
